A study of Mus musculus with 2 samples.

Results

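The integrin and laminin genes of the mouse were examined for accessible chromatin in the urinary bladder. All GENCODE M21 protein-coding genes whose symbol begins with Itga or Itgb followed by a digit or a letter code, or with Lama, Lamb or Lamc followed by a digit, were taken, which gave 42 of the 21938 protein-coding genes annotated on mm10. They comprised 18 integrin alpha chains, 9 integrin beta chains, 11 laminin chains and 4 genes whose symbols match although they encode no subunit. DNase-seq maps DNA that nucleosomes leave uncovered, by where DNase I can cut it, and was applied here to whole bladders of male B6CASTF1/J mice aged 36 days. There is 1 group with 2 libraries, replicate 1 and replicate 2, each made from the bladder of 1 of 2 separately numbered males, and no other treatment, genotype or time. B6CASTF1/J mice are first-generation crosses between C57BL/6J and CAST/EiJ, whereas mm10 is the sequence of C57BL/6J alone.

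Integrins are receptors made of an alpha and a beta chain that span the cell membrane and tie the extracellular matrix to the cytoskeleton. Laminins are trimers of an alpha, a beta and a gamma chain that polymerise into the basement membrane, the sheet under every epithelium and around muscle fibres and vessels. In the bladder the urothelium stands on such a sheet, held by hemidesmosomes, while the detrusor muscle and the fibroblasts of the wall carry other integrins and leukocytes carry a set of their own. The genes were therefore sorted by where their products are best known: 9 epithelial, 12 stromal (fibroblast, muscle and vessel wall), 10 of leukocytes and platelets, 7 broad or other, and the 4 that are no subunits. Several members are expressed in cells of other classes as well.

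A start peak was a peak within 500 bases of any annotated transcript start of the gene, in the shorter of the 2 peak lists deposited for each library. Replicate 1 had 38674 peaks and replicate 2 had 47661. Peak heights are scaled separately in each library, with a median start peak height of 2.00 in replicate 1 and 1.78 in replicate 2, so each gene was also given a percentile, which ranks its tallest start peak within the start peaks of that library and is 0 where it had none. How many reads stand behind a height is unknown, so counting intervals cannot be given. Genes are not replicates of each other, so the comparisons between gene classes carry no p-value.

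Start peaks were found at most epithelial members and at few of the leukocyte members. Both libraries had a start peak at 26 of the 42 (61.9%), against 56.3% of all protein-coding genes. Single libraries gave 26 members in replicate 1 (61.9%, against 57.8% of all genes) and 30 in replicate 2 (71.4%, against 58.6%). The longer peak list gave 29 members in both (69.0%, against 61.4%), and the first annotated start alone gave 22 of 42, against 50.9% of all genes. As a whole, then, the members lay close to the background. The classes did not: 8 of 9 epithelial members (88.9%), 8 of 12 stromal members (66.7%), 2 of 10 leukocyte and platelet members (20%), 6 of 7 broad members (85.7%) and 2 of 4 with no subunit role (50%) had one in both. The same count was 10 of 18 for integrin alpha chains, 5 of 9 for beta chains and 9 of 11 for laminin chains, and in replicate 2 each of the 11 laminin chain genes had a start peak.

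Markers of the cell types of the wall were read in the same way, with 56.3% of all genes as the background. Replicates 1 and 2 both had a start peak at 9 of 10 urothelial marker genes, and the last, Krt5, had one in replicate 2. Both libraries had a start peak at 2 of 7 smooth muscle markers, 2 of 5 fibroblast markers and 2 of 4 endothelial markers. The stromal members (66.7%) lay above this background, whereas these marker lists, at 28.6%, 40% and 50%, lay below it. The smooth muscle genes Acta2, Actg2, Cnn1, Tagln and Des had no start peak in the shorter list. In the longer list 4 of 7 smooth muscle markers (57.1%), 3 of 5 fibroblast markers (60%) and 2 of 4 endothelial markers (50%) had one in both libraries, against 61.4% of all genes. None of the leukocyte markers Ptprc, Cd68, Csf1r and Cd3e and none of 3 hepatocyte markers had one in either library. In tissue of mixed cell types, fewer cells of a type and less signal per cell cannot be told apart, and the part of cell numbers in the class differences was not tested.

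**Figure D1:**
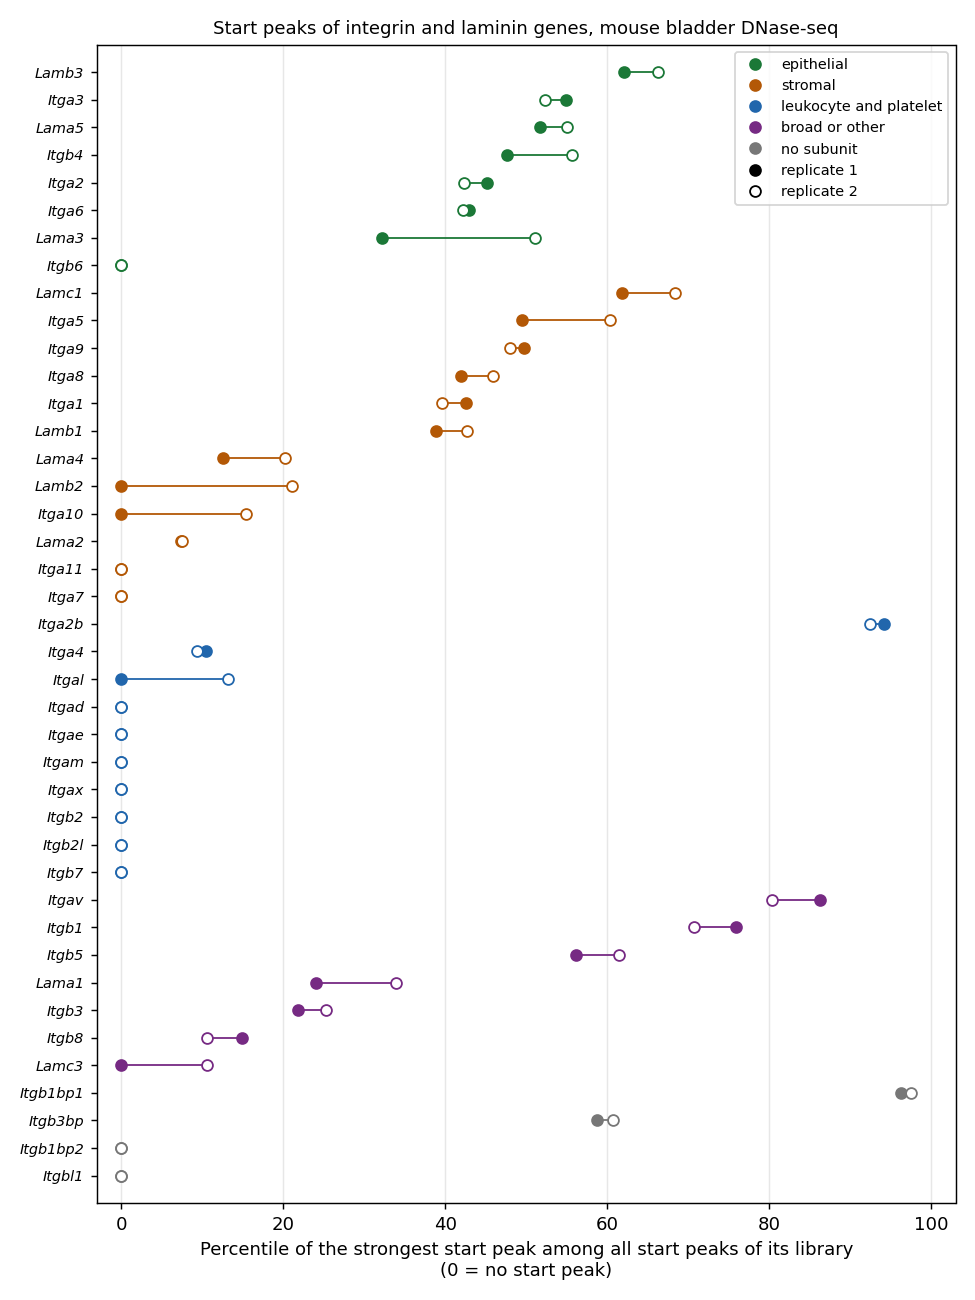
Percentile of the tallest start peak of each gene shown within its library (x axis, 0 to 100, 0 meaning no start peak), grouped by class in colour; filled circles are replicate 1, open circles replicate 2. The epithelial members shown, other than Itgb6, lie between 32.1 and 66.2, while 7 of the 10 leukocyte and platelet members lie at 0 in both libraries.

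**Figure D2:**
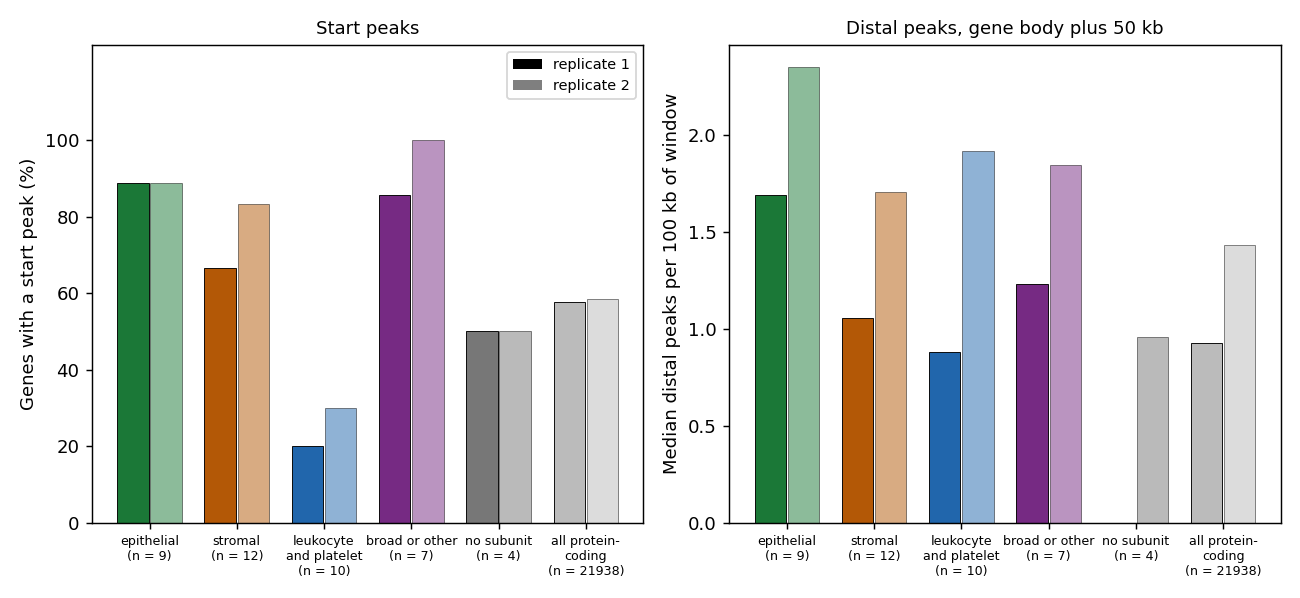
Left, the percentage of genes of each class with a start peak, and right, the median number of distal peaks per 100 kb of gene body plus 50 kb on either side, in replicate 1 (full colour) and replicate 2 (pale). Epithelial members stand at 88.9% in both libraries and leukocyte and platelet members at 20% and 30%, with all protein-coding genes at 57.8% and 58.6%.

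Among the epithelial members, Lama3 and Lamb3 encode the alpha and beta chains of the laminin of the hemidesmosome anchor, and both had a start peak in both libraries. Lamb3, the beta chain, had a start peak height of 2.57 in replicate 1 and 2.62 in replicate 2, at percentile 64.1 ± 2.96 (mean ± SD, n = 2). This is the highest rank among the epithelial members. The peak was not at the first annotated start of Lamb3 (chr1:193207699-193343878, plus strand) but 94272 bases further in, at the start of other protein-coding transcripts. Lama3, the alpha chain, had heights of 1.36 and 1.82, at percentiles 32.1 and 51.1, the largest gap between the libraries among the 26 genes with a start peak in both. Over those genes the median gap was 3.86 percentile points. The Lama3 values are of the peak at its first annotated start, 1 of 2 start peaks of that gene in each library. Lama5, the alpha chain of the laminins of most mature basement membranes, had heights of 2.07 and 2.01, at percentile 53.4 ± 2.32.

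The epithelial integrins had start peaks of middling rank. Itga3, a laminin receptor chain of many epithelia, had heights of 2.22 and 1.88 in replicates 1 and 2 (percentile 53.6 ± 1.85). Itga6 and Itgb4 encode the integrin of the hemidesmosome, which binds laminin from the basal cell surface. Itgb4 had heights of 1.89 and 2.04 (percentile 51.6 ± 5.67), and Itga6 had 1.71 and 1.46 (percentile 42.5 ± 0.526). The Itga6 peak was at a start 41494 bases inside the annotated gene. Itga2, a collagen receptor chain, had heights of 1.79 and 1.46 (percentile 43.7 ± 1.95). Itga3, Lama5 and Itgb4 differed from each other by less than their spread between libraries, and so did Itga2, Itga6 and Lama3. Itgb6, the epithelial partner of the alpha chain Itgav that frees transforming growth factor beta from its latent form, had no start peak in either library. It also had no stretch of bases listed at a per-site false discovery rate (FDR) of at most 0.05 at any of its starts.

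Parts of the start regions of 3 epithelial members are shown because the sequence and footprints of these parts differ. Each is the part of the start peak common to both libraries that lies outside every annotated exon, read on the gene's strand of mm10 and ending at or shortly before the start. Capitals mark bases under a footprint, a short stretch protected from cutting, in both libraries.
Itga3 (chr11:95076802-95076895, minus strand): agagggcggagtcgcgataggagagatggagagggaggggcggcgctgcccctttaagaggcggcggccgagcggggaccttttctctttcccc
Lama5 (chr2:180225901-180225960, minus strand): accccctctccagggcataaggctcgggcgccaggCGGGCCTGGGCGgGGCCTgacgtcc
Lamb3 (chr1:193301881-193301992, plus strand): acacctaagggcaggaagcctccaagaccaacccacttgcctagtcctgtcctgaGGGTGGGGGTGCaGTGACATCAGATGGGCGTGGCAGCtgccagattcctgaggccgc
Footprints in both libraries covered 0 of the 94 printed bases of Itga3, 17 of the 60 of Lama5 and 36 of the 112 of Lamb3. Within 500 bases of any start, however, footprints numbered 8 and 6 at Itga3 in replicates 1 and 2. They numbered 6 and 5 at Lama5 and 6 and 8 at Lamb3. The GC box GGGCGG, the letters read by SP and KLF factors, stands in Itga3 in 2 places and in Lama5 in 1, where 5 of its 6 bases are in a footprint, and it is not in the Lamb3 stretch. Lamb3 holds 2 CpG pairs in 112 bases, whereas Itga3 holds 9 in 94 and Lama5 holds 5 in 60. The letters GGGCGG stood in 69.9% of all shared start sites.

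Stromal members were split between genes with start peaks of the same rank as the epithelial ones and genes with weak or no peaks. Some of them, such as Lamc1 and Lamb1, are not confined to stromal cells, whose part in these peaks was not tested. In a narrower stromal class of 6 genes the median percentile in replicate 2 was 13.9, against 30.4 in all 12 stromal members. It was also lower in replicate 1. The share with a start peak in both libraries was 66.7% in either class. Lamc1, the gamma chain found in most laminins (chr1:153218922-153332786, minus strand), had heights of 2.56 in replicate 1 and 2.75 in replicate 2, at percentile 65.1 ± 4.58 (SD, n = 2). Its difference from Lamb3 was smaller than their spread. Itga5, the alpha chain of the fibronectin receptor, had heights of 1.97 and 2.27 (percentile 54.9 ± 7.67). Itga9, which binds tenascin and other ligands and is known in smooth muscle, had 1.98 and 1.69 (percentile 48.9 ± 1.18). Itga8, the nephronectin receptor chain of mesenchyme and smooth muscle, had 1.68 and 1.60 (percentile 43.9 ± 2.80). Itga1, a collagen receptor chain, had 1.70 and 1.37 (percentile 41.1 ± 2.05), in a peak also within 500 bases of a start of the gene Gm49395. Lamb1, a laminin beta chain of many tissues, had 1.56 and 1.47 (percentile 40.8 ± 2.67).

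The laminin chains of muscle and vessels had weaker start peaks. Lama4, an alpha chain of vessel walls, had heights of 0.873 and 0.866 (percentile 16.4 ± 5.39). Lama2, the alpha chain of the muscle basement membrane, had 0.737 and 0.607, and its percentile was 7.45 ± 0.0765. Those were neighbouring peaks that did not overlap, 2908 bases into the gene in replicate 1 and 3068 in replicate 2. No start peak was found at the first start in either library. Lamb2, the beta chain of vessel, muscle and nerve basement membranes, had a start peak of height 0.884 in replicate 2 and none in replicate 1, but a site 0.779 kb upstream of its start had heights of 2.78 and 2.27 in both libraries. Itga10, a collagen receptor chain of cartilage, likewise had a start peak of 0.768 in replicate 2 alone. Itga7, the laminin receptor chain of muscle, and Itga11, the collagen receptor chain of fibroblasts, had none in either library. At Itga7 no stretch at an FDR of at most 0.05 was listed at any start. In the longer, more permissive list Itga11 had a start peak of 0.464 in replicate 2 and Itga10 one of 0.850 in replicate 1.

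Because Itga9 holds a footprinted motif in its start region, its sequence is given, with capitals for bases under a footprint in both libraries.
Itga9 (chr9:118606541-118606689, plus strand): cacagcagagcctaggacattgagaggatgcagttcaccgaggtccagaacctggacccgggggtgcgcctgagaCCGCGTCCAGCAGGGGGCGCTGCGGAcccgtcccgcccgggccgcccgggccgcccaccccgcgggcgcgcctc
The single footprint of 26 bases contains CCAGCAGGGGGC, which fits a core of the motif of the insulator protein CTCF (CC, 3 free bases, AG, 2 free bases, GGC), with 12 of 12 bases inside. This core, on either strand, stood in 20.01% of all shared start sites and in 5 of the 35 start sites of the members (14.3%). Its letters were widened after footprint sequences had been seen.

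Of the leukocyte and platelet genes, 7 of 10 had no start peak in either library. They were Itgb2, the beta chain common to the leukocyte integrins, its alpha partners Itgad, Itgam and Itgax, the Itgb2-related gene Itgb2l, and Itgae and Itgb7, which together form the receptor that holds lymphocytes in epithelia. None of the 7 had a stretch at an FDR of at most 0.05 at any start. Itgal, the fourth alpha partner of Itgb2, had a start peak of height 0.723 in replicate 2 (percentile 13.2) and none in replicate 1. Itga4, the alpha chain through which leukocytes bind vessel walls, had heights of 0.816 and 0.643 (percentile 9.87 ± 0.781, SD, n = 2). Both Itga4 and Itgal were thus far under the median start peak height of their libraries.

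Itga2b, the alpha chain of the fibrinogen receptor of platelets (chr11:102453297-102470122, minus strand), was the exception in this class. Its start peak had heights of 5.12 in replicate 1 and 4.94 in replicate 2, at percentile 93.3 ± 1.15, the second highest of the 42 genes. The peak lay 2912 bases into the gene, at the start of a processed transcript that encodes no protein, and the gene was the only 1 of the 26 not counted when the starts of protein-coding transcripts alone were used. Itgb3, its beta partner in platelets and a broad member here, had heights of 1.09 and 0.973 (percentile 23.5 ± 2.44). The sequence upstream of that inner start is shown, again with footprints of both libraries in capitals.
Itga2b (chr11:102467200-102467326, minus strand): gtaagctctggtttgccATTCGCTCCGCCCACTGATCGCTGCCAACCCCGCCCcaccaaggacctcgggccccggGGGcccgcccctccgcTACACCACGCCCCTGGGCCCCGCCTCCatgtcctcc
Footprints cover 66 of these 127 bases in 3 runs, and 2 of the 3 GC boxes, here read as CCGCCC on the other strand, lie wholly within them. The stretch has 10 CpG pairs and 72.4% G and C.

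Among subunit genes, the broad members Itgav and Itgb1 ranked highest after Itga2b. Itgav, the alpha chain of the receptors for vitronectin and latent transforming growth factor beta, had heights of 4.18 and 3.61 in replicates 1 and 2 (percentile 83.3 ± 4.26). Itgb1, the beta chain shared by most alpha chains, had 3.39 and 2.91 (percentile 73.3 ± 3.62). Itgb5, a partner of Itgav in the vitronectin receptor, had 2.28 and 2.33 (percentile 58.8 ± 3.77). These 3 differed from one another by more than the spread between libraries. Lama1, the alpha chain of early embryonic basement membranes, had 1.15 and 1.19 (percentile 29.0 ± 6.90), and Itgb8, another partner of Itgav, had 0.930 and 0.670 (percentile 12.8 ± 3.03). Lamc3 had a start peak of 0.670 in replicate 2 alone, and one of 0.556 in replicate 1 in the longer list. Of the alpha chains that pair with Itgb1, Itgav stood at a higher percentile than Itgb1 itself, while Itga1, Itga2, Itga3, Itga4, Itga5, Itga6, Itga8 and Itga9 had start peaks in both libraries at lower ones.

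Of the 4 genes that are no subunits, Itgb1bp1, whose product binds the tail of the Itgb1 protein, had the highest start peak of all 42 genes, with heights of 5.58 and 6.10 (percentile 96.9 ± 0.868). The peak is also within 500 bases of a start of Cpsf3, a gene of messenger RNA cleavage. Itgb3bp, which encodes a centromere protein, had 2.41 and 2.29 (percentile 59.7 ± 1.35), at different peaks. The replicate 1 peak lay 342 bases into the gene and is also within 500 bases of a start of Pgm1. The replicate 2 peak lay 100522 bases into it and is also within 500 bases of a start of Efcab7. The SD is thus not a spread at 1 site. Itgb1bp2, a gene of striated muscle, and Itgbl1, a secreted relative of the beta chains, had no start peak in either library. In the longer list Itgb1bp2 had peaks of 0.317 and 0.330, and Itgbl1 had 1 of 0.397 in replicate 1 alone.

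The CpG content of the promoters differed among the classes, in an order that depended on the start used. For each gene the ratio of observed to expected CpG was taken over 250 bases before to 50 bases after the starts of its protein-coding transcripts, and the highest kept. Its median was 0.649 in epithelial members, 0.537 in stromal members, 0.295 in leukocyte and platelet members, 0.648 in broad members and 0.662 in the 4 genes that are no subunits, against 0.654 in all protein-coding genes. Stromal members thus lay below all genes in this ratio and above them in start peaks. At the first annotated start alone, medians were 0.519 in epithelial, 0.537 in stromal and 0.284 in leukocyte and platelet members, against 0.524 in all genes. By that start stromal members lay above both epithelial members and all genes. By the highest ratio, members with a start peak in both libraries had a median of 0.651 and those without had 0.331. All genes with and without one had 0.840 and 0.253.

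At a ratio of 0.6 or more, 16 of 19 members had a start peak in both libraries (84.2%), against 87.1% of all such genes. By class these were 5 of 6 epithelial members, 4 of 4 stromal members and 0 of 1 leukocyte and platelet members. Below 0.6 the count was 10 of 23 members (43.5%), against 20.3% of all such genes. In the low-CpG stratum 3 of 3 epithelial members (Itga2, Lama3, Lamb3), 4 of 8 stromal members and 2 of 9 leukocyte and platelet members had one. Lamb3 had a ratio of 0.197 and a start peak percentile of 64.1, Itga2b had 0.266 and 93.3, and Lama3 had 0.419 and 41.6. The Itga2b ratio was taken at its coding starts, whereas its peak, counted among the 2 of 9, lay at a processed transcript's start. In the other direction Itgb6 had a ratio of 0.649 and Itgad 0.773 with no start peak. The part of CpG content in the class differences was not tested beyond these strata.

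**Figure D3:**
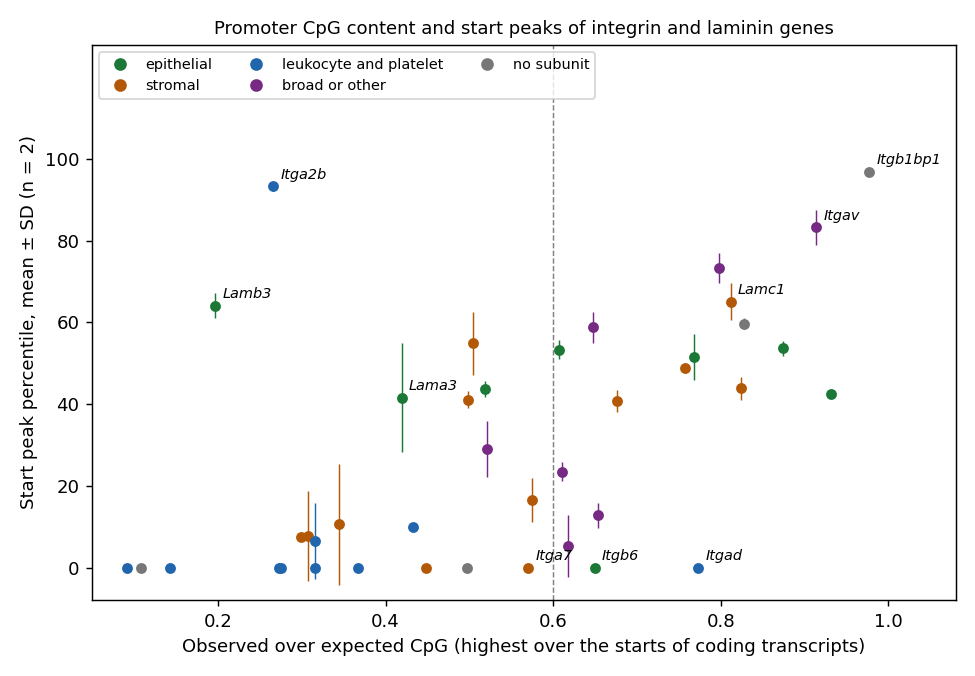
Highest observed over expected CpG ratio at the starts of coding transcripts (x axis) against the start peak percentile (y axis, mean ± SD over the 2 libraries) for the genes shown, coloured by class, with a dashed line at 0.6. Lamb3 and Itga2b stand at 64.1 and 93.3 with ratios of 0.197 and 0.266. Itgb6 and Itgad stand at 0 with ratios of 0.649 and 0.773. The Itga2b peak lies at a start of a processed transcript, which its ratio does not cover.

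Peaks away from starts were counted in the gene body plus 50 kb on either side, and called shared where peaks of both libraries overlapped. A distal site overlapped no 500-base window of an annotated start of any gene. Epithelial members had a median of 1.15 shared distal sites per 100 kb of window, stromal members 0.804, leukocyte and platelet members 0.614, broad members 1.23 and all protein-coding genes 0.845. Single libraries gave 1.69 and 2.35 distal peaks per 100 kb in epithelial members, 1.05 and 1.71 in stromal members, 0.882 and 1.92 in leukocyte and platelet members, and 0.925 and 1.43 in all genes, in replicates 1 and 2. Stromal and leukocyte members thus changed places between the libraries. All members together had a median of 0.804 shared distal sites per 100 kb, against 0.845 in all genes. Their median gene length was 64.1 kb, against 17.4 kb in all genes. Of the 42 members 10 had no shared distal site (23.8%), against 35.7% of all genes, shares that are not corrected for window length. These were Itgam, Itgav, Itgax, Itgb1bp2, Itgb2l, Itgb3bp, Itgb6, Itgb8, Itgbl1 and Lama5.

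The position of the sites was also counted by class, without a correction for gene length or a share over all genes. Median gene length was 99.0 kb in epithelial, 110 kb in stromal, 37.2 kb in leukocyte and platelet and 80.8 kb in broad members. Within the gene itself were 14 of the 23 shared distal sites of epithelial members, 7 of the 23 of stromal members, 4 of the 16 of leukocyte and platelet members and 11 of the 22 of broad members. The nearest start of a protein-coding gene belonged to the member for 14 of 23 sites in the epithelial class (60.9%), 6 of 23 in the stromal class (26.1%), 3 of 16 in the leukocyte and platelet class (18.8%) and 15 of 22 in the broad class (68.2%). Counting such sites alone, the median was 0.847 per 100 kb in epithelial members and 0 in both stromal and leukocyte members. Windows of some members overlap, and those of Itga1 and Itga2 share 79.0 kb and 2 sites.

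**Figure D4:**
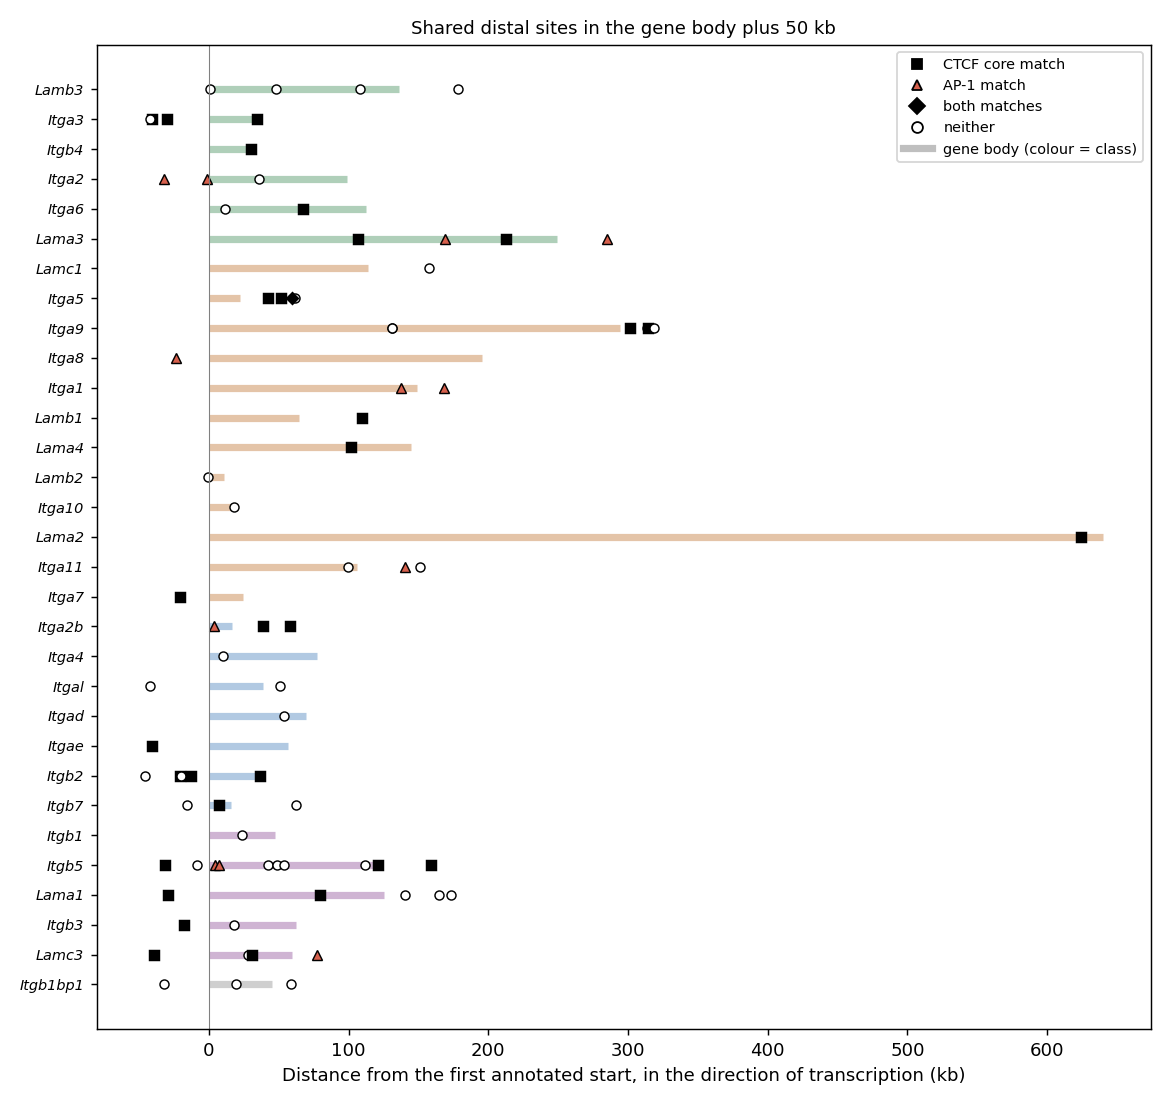
Shared distal sites of the members shown, by distance in kb from the first annotated start in the direction of transcription (x axis); pale bars are gene bodies in the colour of the class, squares hold the CTCF core, triangles the AP-1 letters, the diamond both and open circles neither. Itgb5 has 10 sites with 6 inside the gene, while the 5 sites of Itgb2 all lie outside it.

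Itgb5 had the most shared distal sites of the 42 genes, 10 in its window (4.55 per 100 kb). Inside the gene lay 6 of them, and 8 were nearest to a start of Itgb5. The strongest by rank lay 121 kb from the first start, just past the gene's end, with heights of 2.74 in replicate 1 and 2.36 in replicate 2 (percentile 90.4 ± 1.45 among shared distal sites, SD, n = 2). The site 8.71 kb upstream had heights of 1.93 and 3.04. Of the epithelial members, Itga3 had 4 sites (3.02 per 100 kb), none in the gene and each nearest to a start of Dlx3 or Pdk2, and Lamb3 had 4 (1.69 per 100 kb), of which 3 were in the gene.

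In the stromal class Itga5 had 4 sites (3.27 per 100 kb), all downstream and nearest to starts of Gpr84 or Zfp385a. Itga9 had 6 (1.52 per 100 kb), of which the 2 inside the gene were nearest to its own starts. The strongest site in its window, with heights of 4.58 and 4.46 (percentile 98.9 ± 0.0182), lay 319 kb from its first start and 0.943 kb from a start of Ctdspl. Itga11 had 3 sites (1.46 per 100 kb), none nearest to its own start, with Fem1b and Cln6 as the nearer genes. The strongest had heights of 4.66 and 3.83 and lay at 151 kb, downstream of the gene and 9.905 kb from a start of Cln6. In the leukocyte and platelet class Itgb2 had 5 (3.69 per 100 kb), none inside the gene and none nearest to its own start, with Fam207a and Pttg1ip as the nearer genes. Itgb7 had 3 (2.59 per 100 kb) and Itga2b 3 (2.57 per 100 kb), with 1 inside the gene for each.

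Lama5 differed between the libraries away from its start. Replicate 1 had 9 distal peaks in its window, with heights between 0.510 and 1.43, all of them between -3.37 kb and 7.69 kb of its start, where negative distances lie inside the gene. Replicate 2 had 3, with heights between 0.705 and 2.30, none of which overlapped those of replicate 1. In the longer list of the other library, 2 of the 9 and 2 of the 3 were found. Over all members, 88 of 108 distal peaks of replicate 1 were also in replicate 2 (81.5%, against 84.3% of all distal peaks), and 89 of 159 of replicate 2 were in replicate 1 (56.0%, against 58.8%).

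The distal sites were searched on both strands for 20 motifs. Described in full, chosen after the values were seen, are the letters TGANTCA of AP-1, the factor of Fos and Jun proteins that is active in many epithelia, and the CTCF core. AP-1 letters stood in 7 of 23 shared distal sites of epithelial members (30.4%), 5 of 23 of stromal members (21.7%), 1 of 16 of leukocyte and platelet members (6.25%), 3 of 22 of broad members (13.6%) and 14 of 84 of all members (16.7%), against 2109 of all 15562 shared distal sites (13.6%). At shared start sites they stood in 4 of 12 of the epithelial members (33.3%) and in 6 of 35 of all members (17.1%), against 5.62% of all 16050. The CTCF core stood in 7 of 23 epithelial (30.4%), 9 of 23 stromal (39.1%), 7 of 16 leukocyte and platelet (43.8%) and 8 of 22 broad sites (36.4%), against 35.7% of all. Other motifs departed from the background by as much. The NFY letters CCAAT stood in 9 of 23 epithelial (39.1%), 7 of 23 stromal (30.4%) and 7 of 16 leukocyte and platelet sites (43.8%), against 22.5% of all. The E-box CAGCTG stood in 5 of 23 epithelial (21.7%), 8 of 23 stromal (34.8%) and 3 of 16 leukocyte and platelet sites (18.8%), against 19.6% of all. The sites of Itga1 and Itga2 that hold AP-1 letters are the same 2 sites, counted in both the epithelial and the stromal class.

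**Figure D5:**
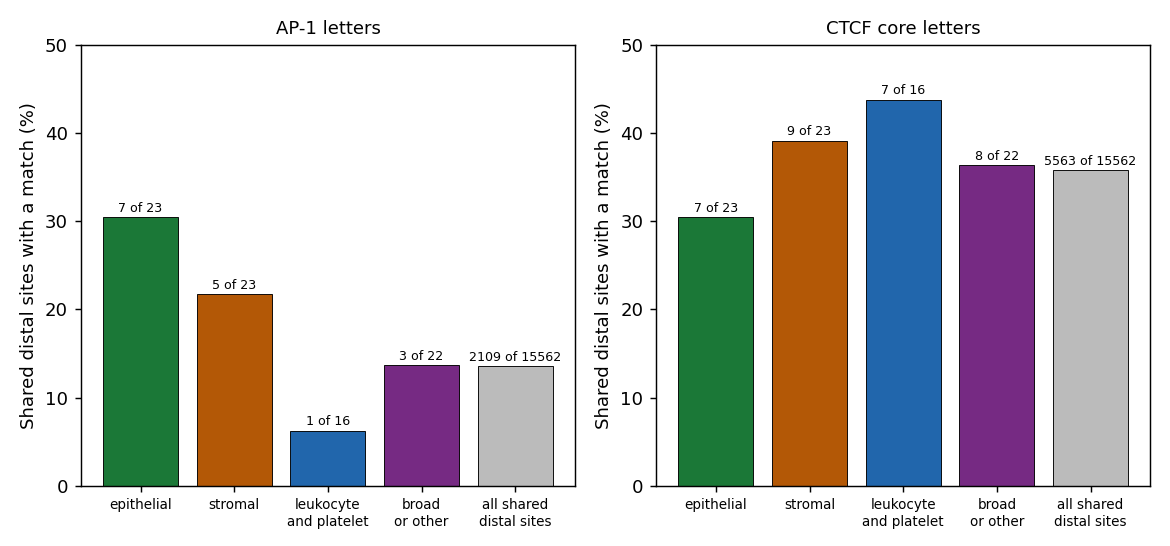
Percentage of shared distal sites that hold the AP-1 letters TGANTCA (left) or the CTCF core (right) on either strand, by class, with the counts above the bars and all 15562 shared distal sites at the right. AP-1 letters range from 6.25% to 30.4% over the classes and the CTCF core from 30.4% to 43.8%.

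AP-1 matches of the epithelial members Itga2 and Lamb3 are shown with 20 bases on either side. Each is read on the gene's strand of mm10, and capitals mark the match.
Itga2 (chr13:114933788-114933834, minus strand): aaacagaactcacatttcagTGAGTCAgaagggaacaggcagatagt
Itga2 (chr13:114964369-114964415, minus strand): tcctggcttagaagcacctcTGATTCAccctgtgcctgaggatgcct
Lamb3 (chr1:193301400-193301446, plus strand): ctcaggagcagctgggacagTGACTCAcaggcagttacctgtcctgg
The first Itga2 match is in a site centred 1.67 kb upstream of the gene's start, with heights of 1.27 and 1.70, and the second in a site centred 32.4 kb upstream, with heights of 2.22 and 2.18. The Lamb3 match is in a second start site of that gene, with heights of 1.64 and 1.79. Lama3 had AP-1 letters in 2 of its 4 shared distal sites.

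Footprints touched few of the AP-1 matches and most of the CTCF cores. Those of both libraries touched the AP-1 match at 0 of 14 distal sites of the members, and those of either library at 4 of 14. Of all 2109 such sites, 274 were touched in both libraries (13.0%). The CTCF core was touched in both libraries at 28 of 31 sites of the members (90.3%), against 84.3% of all 5563 such sites. The CTCF letters were widened after footprint sequences had been seen, so their contrast with the AP-1 letters is not independent of the footprints. The strongest distal site of Itga6, which lies inside the gene, that of Itgb5 and that of Itgb2 are printed as examples of the covered core. Capitals mark footprints found in both libraries, and each is the plus strand.
Itga6 (chr2:71812821-71813000): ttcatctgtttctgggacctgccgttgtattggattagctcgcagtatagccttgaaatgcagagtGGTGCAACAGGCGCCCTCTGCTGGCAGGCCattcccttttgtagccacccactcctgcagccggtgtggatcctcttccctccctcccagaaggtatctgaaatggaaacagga
Itgb5 (chr16:33950941-33951120): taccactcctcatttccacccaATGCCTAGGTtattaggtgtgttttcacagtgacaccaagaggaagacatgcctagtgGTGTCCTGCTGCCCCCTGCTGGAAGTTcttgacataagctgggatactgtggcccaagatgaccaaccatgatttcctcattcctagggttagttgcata
Itgb2 (chr10:77509768-77509940): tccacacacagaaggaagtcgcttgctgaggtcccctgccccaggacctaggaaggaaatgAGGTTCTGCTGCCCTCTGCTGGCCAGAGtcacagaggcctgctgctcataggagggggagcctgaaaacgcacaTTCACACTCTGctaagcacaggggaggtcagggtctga
The core reads GCCCTCTGCTGG in Itga6 and Itgb2 and GCCCCCTGCTGG in Itgb5, the reverse complement of the searched letters, with 12 of 12 bases in a footprint in each. A match in letters describes the sequence and is not evidence that a factor was bound.

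Footprint density did not follow the order of the start peaks. The median number of footprints per 100 kb of gene body plus 50 kb, averaged over the libraries, was 13.4 ± 2.99 in epithelial members, 12.0 ± 0.710 in stromal members and 17.7 ± 1.01 in leukocyte and platelet members (SD, n = 2), against 11.7 ± 1.05 in all protein-coding genes. Epithelial and stromal members thus differed by less than the spread between libraries. Over the gene body alone the values were 17.0 in epithelial, 3.72 in stromal and 6.94 in leukocyte and platelet members, against 6.02 in all genes. Of these classes the epithelial one was therefore highest within the genes and the leukocyte one highest once flanks were included. The median gene length was 99.0 kb in epithelial, 110 kb in stromal and 37.2 kb in leukocyte and platelet members, against 17.4 kb in all genes. Footprints within 500 bases of any start numbered 12 in each library at Itga2b, 12 and 13 at Lamc1, 9 and 8 at Itgb1, and 0 in both libraries at Itgb2, Itgb6 and Itga7.

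The proteins that integrins and laminins work with had start peaks more often than the members did. Start peaks in both libraries were found at 30 of 37 partner genes (81.1%), against 56.3% of all protein-coding genes. Cytoplasmic linkers and signalling proteins gave 15 of 17, with Lims1 at percentile 96.0 ± 0.958, Vcl, the linker vinculin, at 93.0 ± 0.818 and Tln1, the integrin activator talin, at 83.3 ± 1.86 (SD, n = 2). The 2 without one were Tln2 and Fermt3, the kindlin of blood cells. Its relatives Fermt2 and Fermt1, the kindlins of most tissues and of epithelia, stood at 42.2 ± 3.25 and 34.98 ± 2.26.

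Among hemidesmosome genes 3 of 4 had one in both libraries. Cd151, a membrane partner of laminin-binding integrins, stood at percentile 88.0 ± 4.12, Plec, the plakin that ties Itgb4 to keratin, at 77.4 ± 3.01, and Dst at 53.2 ± 4.10, while Col17a1, the collagen of the hemidesmosome, had none in either. Basement membrane and ligand genes gave 10 of 14, with Hspg2, the heparan sulphate proteoglycan perlecan, at 85.7 ± 7.02, and with Nid1, Vtn, Tnc and Spp1 at 0. The laminin receptors that are no integrins, Dag1 and Bcam, stood at 98.4 ± 1.01 and 67.0 ± 1.53.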

How the data were processed

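DNase-seq was carried out on bladder nuclei, with 1 library from each of 2 animals. The authors made each list from the filtered mm10 alignments of 1 library, per the text deposited with each library. No aligner or caller is named in the sources used here. Deposited peak heights are signal values on an unstated scale, whose step is 0.0113 for replicate 1 and 0.00893 for replicate 2. The deposited per-site FDR is an adjusted p-value, listed up to 0.05, and the deposited footprints carry the constant 0.01, taken for a p-value or FDR limit.

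Peaks were compared with GENCODE M21 on GRCm38 patch 6, which shares mm10 coordinates, in Python 3.11.15 with NumPy 2.4.6 and pandas 2.3.3. Peaks overlapping by at least 1 base were merged into 51228 sites, of which 31612 were shared by both libraries and 15562 of these were distal. Windows counted peaks by midpoint, and the percentile ranks distal sites among shared distal sites of a library. Scripts were tested on simulated data. Values were described without tests. Named in full were up to 4 members per class by start peak percentile and 3 by shared distal density. Values of 1 member and of 1 marker gene are not reported here, though counts of genes include both. Classes, members and lists were chosen with earlier results of these data known, and the CTCF letters were widened after footprint sequences had been seen.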

Additional observations from a re-analysis of the deposited data

How the results depend on the processing

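The order of the classes at starts, epithelial above stromal above leukocyte and platelet, was the same in 10 of 10 settings, which were the reported one and other peak lists, start windows, start sets, peak strengths, narrower classes and single libraries. The leukocyte and platelet share was 10% with the first start only, with the stronger 50% of peaks, and with starts of protein-coding transcripts only (added after the data were seen), and 0% with narrow classes that leave out Itga2b, Itga4 and Itgb2l. With the stronger 50% of peaks, 8 of the 26 members were no longer counted, among them Lama3 and Lama4. Without 1 replicate the leukocyte and platelet share was 20% to 30%, the stromal share 66.7% to 83.3% and the epithelial share 88.9% to 88.9%.

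Among the epithelial, stromal and leukocyte classes, shared distal sites per 100 kb were highest in epithelial members in 11 of 11 settings. Leukocyte members were lowest in only 5 of 11. Broad members, at 1.23 against 1.15 in epithelial members in the reported setting, were not part of this comparison. With the longer peak list the medians were 3.29 in epithelial, 1.505 in stromal and 2.20 in leukocyte members, against 1.61 in all genes. Epithelial members had 1.68 with 10 kb flanks and 0.502 with the stronger 50% of peaks, and all genes had 0 in each. Stromal members had 0.0782 in the gene body alone, where all genes had 0, and 0 with sites nearest to the gene only (also added later). Median gene length was 99.0 kb in epithelial and 110 kb in stromal members, against 17.4 kb in all genes. The windows are thus of unlike length, and the values of 0 in all genes are not a like comparison. Counting 1 library alone gave 1.69 to 2.35 in epithelial, 1.05 to 1.71 in stromal and 0.882 to 1.92 in leukocyte members. Footprints per 100 kb in the gene body alone were 17.0, 3.72 and 6.94 in epithelial, stromal and leukocyte members, and those inside peaks only 8.60, 8.83 and 11.9. The cause of these shifts was not tested. No paired analysis was possible because the design has 1 group. Depth is unknown, and no peak called at a start does not show that the chromatin there is closed in every cell type of the wall.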
